A study of Ovis aries with 7 samples.

Results

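Kainate receptors are glutamate-gated ion channels built from the subunits encoded by GRIK1 to GRIK5, and the delta receptor subunit GluD1 is encoded by GRID1. These 6 genes were taken by their symbols from the 26479 features counted in single nuclei of the sheep striatum. Each symbol matched 1 feature. They are GRIK1 (ENSOARG00020001801), GRIK2 (ENSOARG00020004644), GRIK3 (ENSOARG00020015177), GRIK4 (ENSOARG00020018709), GRIK5 (ENSOARG00020021115) and GRID1 (ENSOARG00020026327). The choice used no measured value but was made with earlier results of these data known. The genes were kept out of the clustering that defined the nucleus classes.

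Kainate receptors are tetramers. GluK1, GluK2 and GluK3 (GRIK1 to GRIK3) can form channels by themselves and bind kainate with low affinity, whereas GluK4 and GluK5 (GRIK4 and GRIK5) bind it with high affinity and work only together with the former. Auxiliary NETO proteins slow their gating, and in the striatum kainate receptors are known on both sides of the synapse, where they carry slow currents and adjust transmitter release. GluD1 does not behave as a conventional glutamate-gated channel. It binds secreted cerebellins, which in turn bind presynaptic neurexins, and so takes part in holding synapses together.

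The striatum was taken from 6 OVT73 and 6 control sheep, all aged 5 years. OVT73 sheep carry a full-length human huntingtin (HTT) cDNA with an expanded polyglutamine tract, driven by the human sequence upstream of that gene, and the controls are wild-type sheep kept alongside them. Nuclei were run as 7 droplet libraries, 3 OVT73 and 4 control, in which transcripts were counted as unique molecular identifiers (UMIs). Each OVT73 library pooled 2 sheep, as did control libraries 3 and 4, while control libraries 1 and 2 held 1 sheep each. Both groups include females and males. Pooled sheep were not separated here, so the library is the replicate.

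The OVT73 libraries held 27760110 to 70473426 UMIs and the control libraries 20887378 to 27704528, with median UMIs per nucleus kept of 2221 to 2562 and 1860 to 2170. Of 35272 barcodes 32599 were kept, 17439 of them OVT73. The added HTT feature, through which the human transgene can be read, gave 25 to 322 UMIs per OVT73 library against 1 to 6 per control library. Clustering gave 29 clusters, of which 19 took a class name from marker genes. The 10 classes with at least 10 nuclei in every library hold 30059 nuclei, or 92.2%, 4 named classes are rarer, and 2082 nuclei lie in clusters left unnamed. Names rest on transcripts and are written as "-like". Control library 3 stands apart in microglia-like, DTHD1-led astrocyte-like and SLC1A2-led astrocyte-like nuclei by its oligodendrocyte markers. They summed to 1613, 2855 and 2328 CPM (the count scaled to a library or class total of 1e6 UMIs) there. The other libraries held 216 to 383, 92 to 666 and 61 to 1068 CPM.

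Levels of each gene were first compared between classes within the same libraries. A level is the gene's share of all UMIs of a class in a library, in CPM, averaged over 7 libraries with its SD. Longer genes can give more UMIs, and no lengths of the build in use were at hand, so that no level is compared between genes. Classes were ordered by mean log2(CPM + 1), and each class was compared with the next by a two-sided exact permutation test of the 7 paired differences. Over 7 libraries the smallest p this test can give is 0.0156, and adjusted over the 54 neighbour pairs (Benjamini-Hochberg) it became 0.0422, because 20 pairs reached it. These 20 pairs, higher in 7 of 7 libraries, are called different below. The call rests on all 7 libraries and on full depth, since with any 1 library left out, or with nuclei thinned to equal depth (adjusted p = 0.0603, exact permutation test), 0 of the 54 pairs passed.

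**Figure D1:**
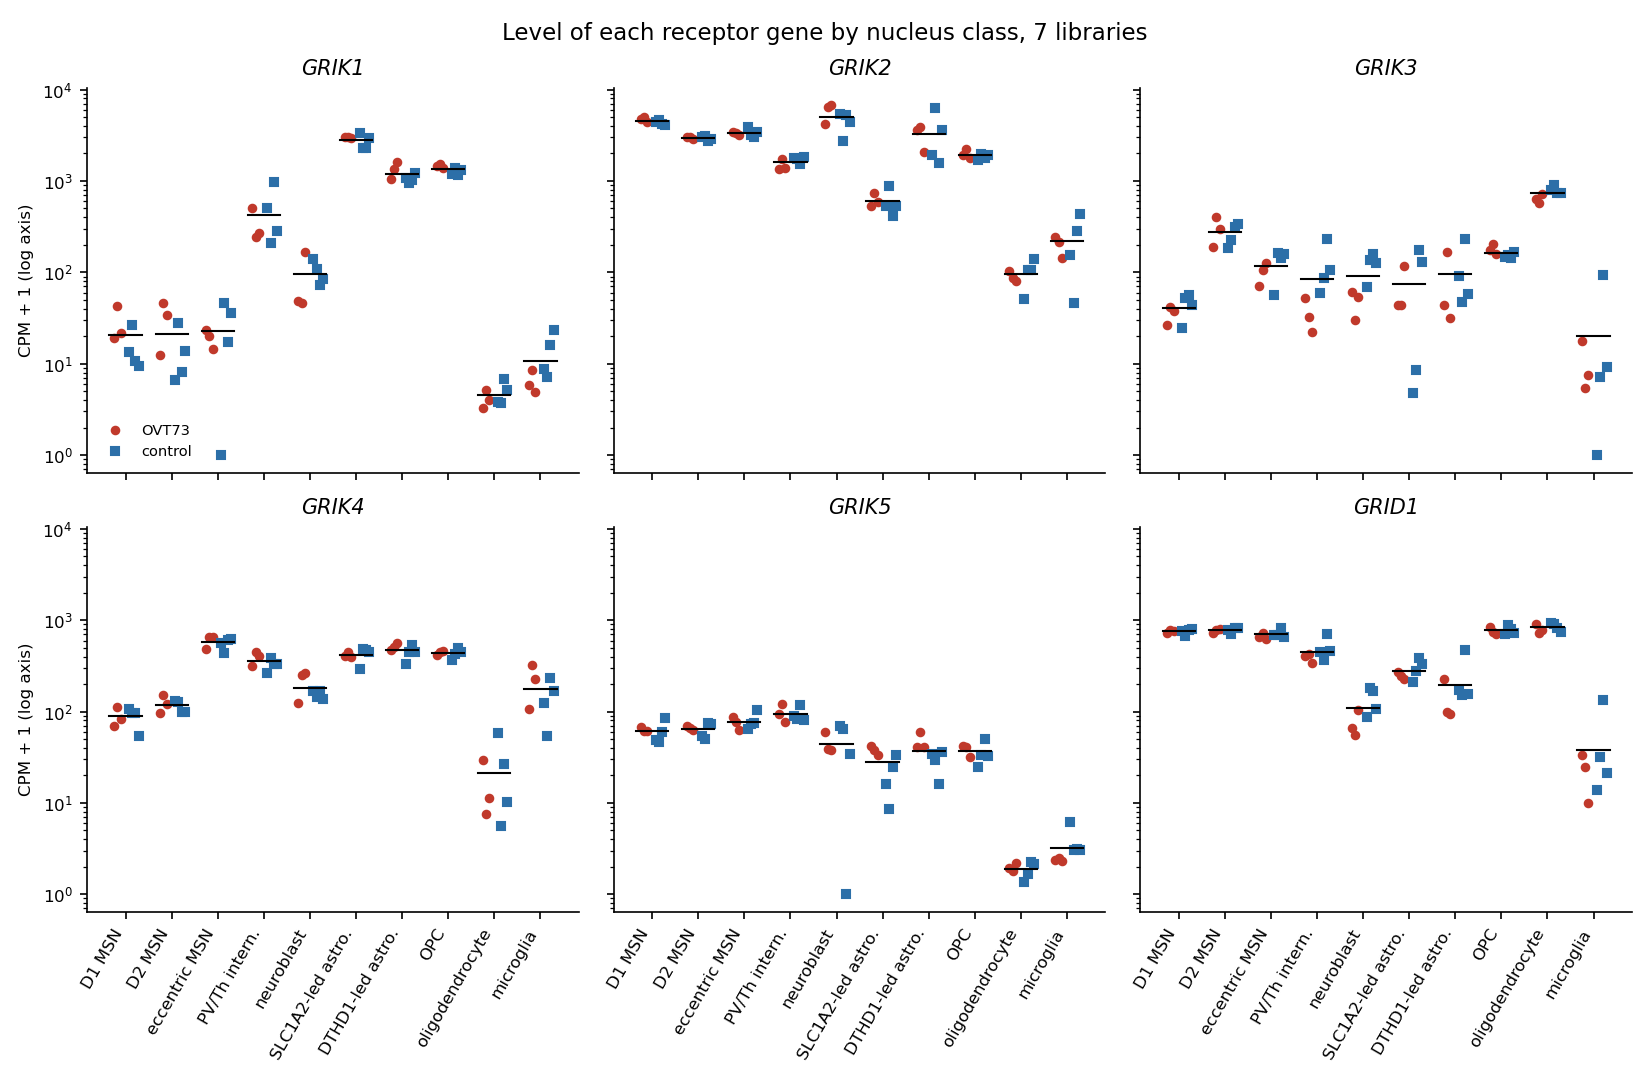
Level of each gene in 10 nucleus classes on a log axis of CPM + 1, with 1 point per library (red circles OVT73, blue squares control) and a black line at the mean of 7 libraries. GRIK1 peaks at 2840 CPM in SLC1A2-led astrocyte-like nuclei, GRIK3 at 730 CPM in oligodendrocyte-like nuclei, and GRIK2 at 5046 CPM in neuroblast-like nuclei, with 2952 to 4502 CPM in the medium spiny neuron (MSN)-like classes.

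GRIK1, the GluK1 subunit, was highest in the astrocyte-like and glial precursor-like classes and low in the projection neurons. It stood at 2840 ± 402 CPM (SD, n = 7) in the astrocyte-like cluster led by SLC1A2, the main glial glutamate transporter. The OVT73 libraries gave 2995, 3032 and 2968 CPM and the control libraries 3351, 2299, 2273 and 2960 CPM. All 7 exceeded the 1170 to 1524 CPM of oligodendrocyte precursor (OPC)-like nuclei, which averaged 1350 ± 131 CPM. The step between these classes was 1.06 on the log2 scale (exact permutation test, adjusted p = 0.0422, higher in 7 of 7 libraries).

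Next came the DTHD1-led astrocyte-like nuclei with 1184 ± 232 CPM of GRIK1, which did not differ from OPC-like nuclei beyond the spread (adjusted p = 0.163, exact permutation test). PV/Th interneuron-like nuclei, the class of parvalbumin and TH interneurons, followed at 427 ± 270 CPM. They ranged from 209 CPM in control library 2 to 972 CPM in control library 3. Neuroblast-like nuclei, marked by DCX, held 94.5 ± 46.2 CPM. The steps from DTHD1-led astrocyte-like to PV/Th interneuron-like, to neuroblast-like and to D1 MSN-like nuclei each passed the test.

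In the MSN-like classes GRIK1 was near its background. D1 MSN-like nuclei, the striatal projection neurons marked by TAC1 and EBF1, held 19.5 ± 11.4 CPM. D2 MSN-like nuclei, marked by DRD2 and in the larger of their clusters also by PENK, held 20.2 ± 15.0 CPM. Eccentric MSN-like nuclei, marked by OTOF and FOXP2, held 21.6 ± 14.7 CPM. Microglia-like nuclei, used as a class that should lack these receptors, held 9.66 ± 6.73 CPM, and oligodendrocyte-like nuclei 3.57 ± 1.23 CPM.

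Because nuclei differ in depth, each was also thinned to 1000 UMIs and shallower nuclei were left out (at most 31.9% of a tested class). At that depth 87.7% of SLC1A2-led astrocyte-like nuclei had a GRIK1 UMI, against 66.0% of OPC-like, 48.4% of DTHD1-led astrocyte-like and 0.77% of microglia-like nuclei. The MSN-like shares were 1.75% (D1) and 1.79% (D2), with library ranges of 0.33% to 2.96% and 0.51% to 3.85% that overlap the 0.42% to 1.41% of microglia-like nuclei. Without thinning, the shares were 99.4% in SLC1A2-led astrocyte-like, 13.3% in D1 MSN-like and 1.15% in microglia-like nuclei, whose median depths were 3255 to 4553, 15395.5 to 32155 and 1168 to 1667.5 UMIs. OPC-like nuclei, being more numerous, held the largest part of all GRIK1 UMIs, 39.2%, and SLC1A2-led astrocyte-like nuclei 25.2%.

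GRIK2, the GluK2 subunit, had its highest mean levels of the tested classes in neuroblast-like, D1 MSN-like and eccentric MSN-like nuclei. PV/Th interneuron-like nuclei held less of it, as given below. Neuroblast-like nuclei held 5046 ± 1384 CPM (SD, n = 7), with 2756 CPM in control library 2 and 6788 CPM in OVT73 library 3 as the extremes. D1 MSN-like nuclei held 4502 ± 341 CPM, within a narrow range of 4061 to 5043 CPM. These highest classes did not differ (0.11 on the log2 scale, adjusted p = 0.679, exact permutation test).

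Below them stood eccentric MSN-like nuclei at 3357 ± 278 CPM, DTHD1-led astrocyte-like nuclei at 3277 ± 1635 CPM and D2 MSN-like nuclei at 2952 ± 123 CPM of GRIK2, and among these neighbours none differed. The DTHD1-led astrocyte-like nuclei varied from 1554 CPM (control library 3) to 6325 CPM (control library 2). D2 MSN-like nuclei exceeded OPC-like nuclei (1901 ± 180 CPM) by 0.64 on the log2 scale in 7 of 7 libraries (adjusted p = 0.0422, exact permutation test). PV/Th interneuron-like nuclei held 1618 ± 192 CPM and SLC1A2-led astrocyte-like nuclei 604 ± 158 CPM.

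Microglia-like and oligodendrocyte-like nuclei held the lowest GRIK2 levels, 217 ± 124 and 95.4 ± 27.1 CPM. At 1000 UMIs per nucleus a GRIK2 UMI was found in 97.8% of the D1 and 92.5% of the D2 class of MSN-like nuclei. Microglia-like nuclei had one in 10.6% and oligodendrocyte-like nuclei in 7.27%, so that the mean share in oligodendrocyte-like nuclei did not exceed that in microglia-like nuclei. Clusters within both classes differed in GRIK2, as given below. D1 MSN-like nuclei carried 50.8% and D2 MSN-like nuclei 28.2% of all GRIK2 UMIs. Their mean shares of the UMIs of all genes were 33.3% and 28.9% in OVT73 and 30.9% and 25.4% in control libraries.

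GRIK3, the GluK3 subunit, was highest in oligodendrocyte-like nuclei, the class of myelinating cells. They held 730 ± 107.2 CPM (SD, n = 7), from 577 CPM in OVT73 library 2 to 908 CPM in control library 2. D2 MSN-like nuclei came next with 278 ± 80.7 CPM and a range of 186 to 399 CPM, which lies below every oligodendrocyte-like value. The step between them was 1.43 on the log2 scale (adjusted p = 0.0422, exact permutation test, higher in 7 of 7 libraries).

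OPC-like nuclei, the precursors of that lineage, held 164 ± 20.5 CPM of GRIK3 and differed from D2 MSN-like nuclei. From there to D1 MSN-like nuclei (39.4 ± 12.1 CPM) no neighbours differed. That stretch holds eccentric MSN-like (117 ± 41.9 CPM), DTHD1-led astrocyte-like (94.4 ± 75.2 CPM), neuroblast-like (89.6 ± 48.7 CPM), PV/Th interneuron-like (83.4 ± 71.7 CPM) and SLC1A2-led astrocyte-like nuclei (74.0 ± 66.0 CPM). Microglia-like nuclei held 19.3 ± 32.8 CPM. At 1000 UMIs per nucleus a GRIK3 UMI was found in 46.5% of oligodendrocyte-like, 22.8% of D2 MSN-like, 14.5% of OPC-like, 4.36% of D1 MSN-like and 0.87% of microglia-like nuclei. Oligodendrocyte-like nuclei held 46.3% of the gene's UMIs, D2 MSN-like nuclei 31.8% and D1 MSN-like nuclei 5.1%. Of the UMIs of all genes these classes held means of 12.5%, 28.9% and 33.3% in OVT73 and 17.3%, 25.4% and 30.9% in control libraries.

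The 4 oligodendrocyte-like clusters had similar GRIK3 levels. The clusters led by MUSK, GHR, MMRN1 and WDR72 held 708 ± 78.9, 693 ± 119, 722 ± 114 and 803 ± 150 CPM (SD, n = 7).

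GRIK4, a high-affinity subunit, had no single dominant class. Eccentric MSN-like nuclei held 574 ± 88.0 CPM (SD, n = 7), followed by DTHD1-led astrocyte-like (472 ± 76.7 CPM), OPC-like (438 ± 38.8 CPM), SLC1A2-led astrocyte-like (418 ± 63.6 CPM) and PV/Th interneuron-like nuclei (355 ± 63.8 CPM). None of these neighbours differed, the step at the top being 0.29 on the log2 scale (adjusted p = 0.0974, exact permutation test, higher in 6 of 7 libraries). With doublets kept that step was 0.33 and passed the test (adjusted p = 0.0402, exact permutation test).

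Below PV/Th interneuron-like nuclei GRIK4 dropped to 179 ± 56.4 CPM in neuroblast-like, 175 ± 90.5 CPM in microglia-like, 117 ± 20.6 CPM in D2 MSN-like and 87.8 ± 20.8 CPM in D1 MSN-like nuclei. Oligodendrocyte-like nuclei had 20.3 ± 18.7 CPM. The microglia-like level of GRIK4 was not the background of the other subunits. At 1000 UMIs, 14.4% of microglia-like nuclei had a GRIK4 UMI against 1.63% of oligodendrocyte-like nuclei. The latter, the lowest class, were taken as the reference for this gene from these values. The step from microglia-like to D2 MSN-like nuclei did not pass (adjusted p = 0.410, exact permutation test). D1 and D2 MSN-like nuclei lay between the microglia-like and oligodendrocyte-like shares with 7.48% and 9.54%, and eccentric MSN-like nuclei reached 43.6%.

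GRIK5, the other high-affinity subunit, was highest in PV/Th interneuron-like and MSN-like nuclei. PV/Th interneuron-like nuclei held 94.1 ± 17.7 CPM (SD, n = 7), eccentric MSN-like 76.8 ± 14.7, D2 MSN-like 63.4 ± 9.49 and D1 MSN-like 60.8 ± 13.1 CPM, and among these neighbours none differed. D1 MSN-like nuclei exceeded OPC-like nuclei (35.7 ± 8.56 CPM) by 0.76 on the log2 scale in 7 of 7 libraries (adjusted p = 0.0422, exact permutation test). DTHD1-led and SLC1A2-led astrocyte-like nuclei held 35.6 ± 13.0 and 27.0 ± 12.1 CPM, neuroblast-like nuclei 42.9 ± 23.6 CPM, and microglia-like and oligodendrocyte-like nuclei 2.22 ± 1.32 and 0.90 ± 0.32 CPM. The D1 and D2 MSN-like classes together carried most GRIK5 UMIs, 38.9% and 34.3%. Their mean shares of the UMIs of all genes were 33.3% and 28.9% in OVT73 and 30.9% and 25.4% in control libraries. GRIK5 was counted less often than the others, with 11162 UMIs in all nuclei against 32664 for GRIK4 and 624148 for GRIK2.

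GRID1, the delta subunit, had close levels in the MSN-like classes and the oligodendrocyte lineage, and lower levels in PV/Th interneuron-like and neuroblast-like nuclei. Oligodendrocyte-like (834 ± 84.9 CPM), OPC-like (773 ± 71.1 CPM), D2 MSN-like (772 ± 47.2 CPM), D1 MSN-like (754 ± 46.3 CPM) and eccentric MSN-like nuclei (699 ± 65.5 CPM; SD, n = 7) formed a group in which no neighbours differed. The smallest and largest adjusted p in it were 0.185 and 0.984 (exact permutation test). PV/Th interneuron-like nuclei lay lower at 450 ± 124 CPM and SLC1A2-led astrocyte-like nuclei at 278 ± 64.1 CPM, both steps higher in 7 of 7 libraries.

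DTHD1-led astrocyte-like, neuroblast-like and microglia-like nuclei had GRID1 levels of 196 ± 131, 109 ± 48.5 and 37.3 ± 42.5 CPM. At 1000 UMIs per nucleus the share with a GRID1 UMI lay close together in 4 classes, at 50.8% (oligodendrocyte-like), 51.2% (OPC-like), 50.9% (D1 MSN-like) and 51.6% (D2 MSN-like). It was 2.09% for microglia-like nuclei. D1 MSN-like nuclei held 33.9% of all GRID1 UMIs, D2 MSN-like 29.1% and oligodendrocyte-like nuclei 18.1%. Of the UMIs of all genes these classes held means of 33.3%, 28.9% and 12.5% in OVT73 and 30.9%, 25.4% and 17.3% in control libraries. The GRID1 shares thus lie near the shares of all UMIs.

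**Figure D2:**
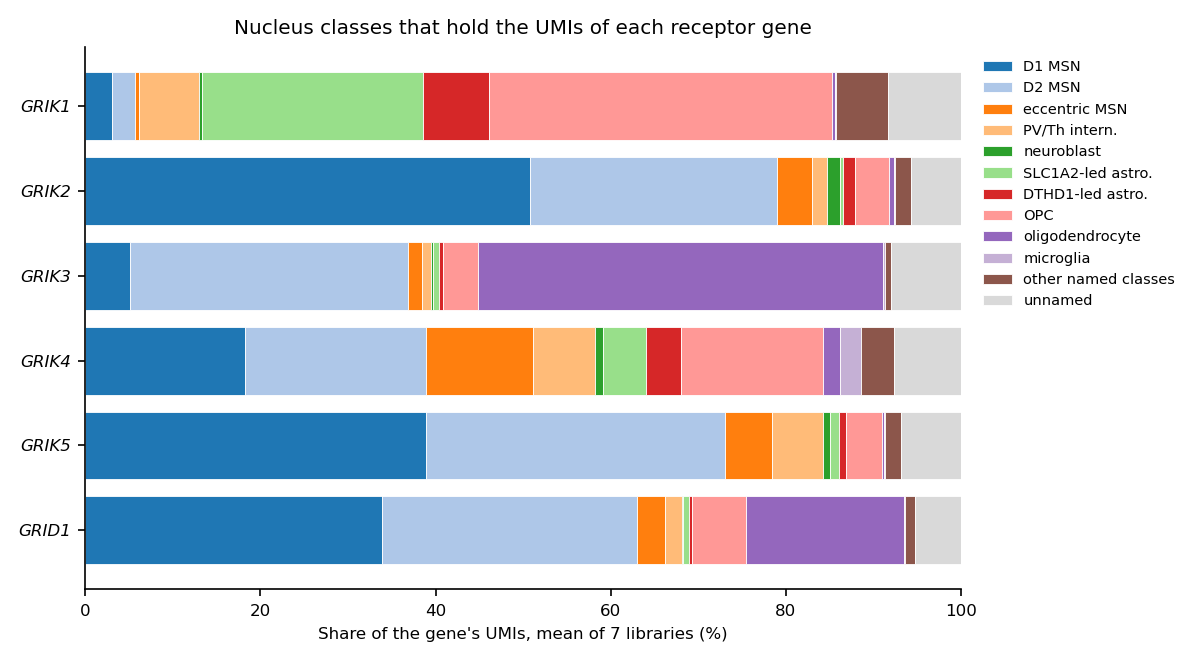
Share of each gene's UMIs by nucleus class, in percent, as stacked bars of the mean of 7 libraries. OPC-like and SLC1A2-led astrocyte-like nuclei hold 39.2% and 25.2% of GRIK1, D1 MSN-like nuclei 50.8% of GRIK2 and oligodendrocyte-like nuclei 46.3% of GRIK3. Of the UMIs of all genes, D1 MSN-like nuclei hold means of 33.3% in OVT73 and 30.9% in control libraries, and oligodendrocyte-like nuclei 12.5% and 17.3%. OPC-like nuclei hold 5.6% and 5.7%, and SLC1A2-led astrocyte-like nuclei 2.5% and 1.3%.

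The rarer classes were not tested. SST/NPY interneuron-like nuclei (108 nuclei, marked by SST, NPY and NOS1) held 813 ± 535 CPM of GRIK1 and 4104 ± 476 CPM of GRIK2 (SD, n = 7), but 138 ± 50.0 CPM of GRID1. Cholinergic interneuron-like nuclei (61 nuclei, marked by CHAT and SLC5A7) held 1138 ± 746 CPM of GRIK2 and 857 ± 95.3 CPM of GRID1.

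The D1 and D2 MSN-like nuclei of the same libraries were then set against each other for each gene. GRIK2 was higher in D1 MSN-like nuclei and GRIK3 in D2 MSN-like nuclei. GRIK4 was also higher over all D2 MSN-like nuclei, but not in their main cluster. For GRIK3 the D1 values were 25.4, 41.1 and 36.6 CPM in the OVT73 and 23.3, 51.6, 55.2 and 42.6 CPM in the control libraries. The D2 values were 188, 399 and 296 CPM in the OVT73 and 186, 227, 312 and 340 CPM in the control libraries. The lowest D2 value thus exceeds the highest D1 value, and the ratio was 6.94-fold, or 2.80 ± 0.38 on the log2 scale (SD, n = 7 libraries; exact permutation test, p adjusted over the 6 genes = 0.0312).

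GRIK2 was 1.52-fold higher in D1 MSN-like nuclei in 7 of 7 libraries (D2 minus D1 difference -0.61 ± 0.07 on the log2 scale). GRIK4 was 1.34-fold higher in D2 MSN-like nuclei, also in 7 of 7 libraries, with the same adjusted p of 0.0312 (exact permutation test). It was not seen in the main cluster. The main D2 cluster, led by HS3ST4 and holding 2072 of the 2279 nuclei, had 88.6 CPM of GRIK4 against 87.8 CPM in D1 MSN-like nuclei (D2 minus D1 0.021 ± 0.20, higher in 4 of 7 libraries, adjusted p = 0.953, exact permutation test). GRIK2 and GRIK3 differed in that cluster as in the whole class (-0.64 and 2.72), and GRID1 passed there with 0.084 (adjusted p = 0.0312 for each, exact permutation test). With 1 library left out the GRIK2, GRIK3 and GRIK4 differences of the whole D2 class kept their direction. Their adjusted p was then 0.0469 or 0.0625 (exact permutation test, n = 6), where the smallest p the test can give is larger than with 7 libraries. Libraries were not left out for the main cluster alone. Over the whole D2 class GRIK1, GRIK5 and GRID1 did not pass, with D2 minus D1 differences of -0.10 ± 0.60, 0.07 ± 0.17 and 0.03 ± 0.04. This comparison was added after the levels had been seen. With nuclei thinned to 1000 UMIs the GRIK2, GRIK3 and GRIK4 differences passed as before, while the differences of GRIK1 and GRIK5 changed sign to 0.10 and -0.39. The thinned GRIK4 value is for the whole D2 class.

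**Figure D3:**
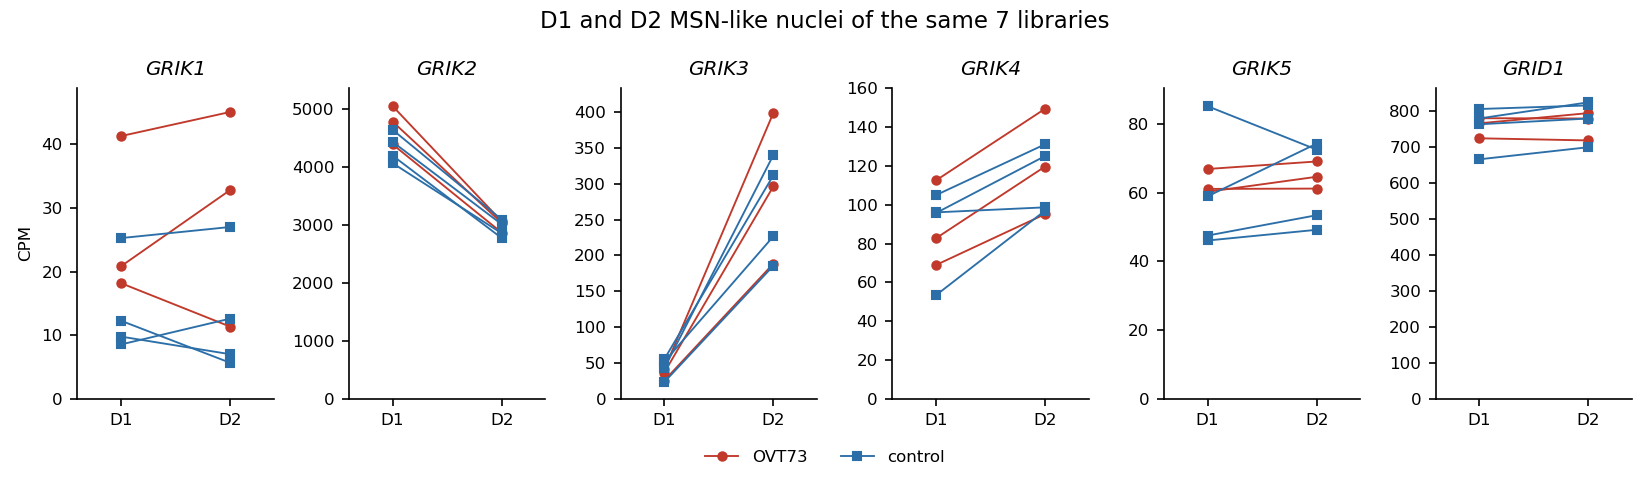
Level of each gene in CPM (linear axes from 0) in D1 and D2 MSN-like nuclei, with 1 line per library (red circles OVT73, blue squares control). All 7 lines fall from D1 to D2 for GRIK2 and rise for GRIK3, with means of 39.4 and 278 CPM. They also rise for GRIK4, whose level in the main D2 cluster alone (88.6 CPM) is close to that in D1 (87.8 CPM).

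Within D2 MSN-like nuclei GRIK4 was higher in the smaller cluster in every library. The cluster led by ALK (207 nuclei) held 370 ± 52.3 CPM of GRIK4, from 297 to 456 CPM, whereas the cluster led by HS3ST4 (2072 nuclei) held 88.6 ± 20.3 CPM, from 62.1 to 124 CPM. The ranges over 7 libraries do not overlap. GRIK2 followed the same order with less distance, 3538 ± 236 against 2888 ± 125 CPM, and GRID1 the opposite order, 519.5 ± 84.5 against 799.5 ± 44.8 CPM. In the ALK-led cluster DRD2, ADORA2A and HS3ST4 were raised among the D2 markers, but PENK was not. Its leading genes ALK, NTNG1 and GRIN2A were also among those of the eccentric MSN-like cluster. That cluster held 574 ± 88.0 CPM of GRIK4 and 3357 ± 278 CPM of GRIK2. These cluster values are a description, without a test.

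The astrocyte-like nuclei also formed clusters with different kainate subunits. GRIK1 was 2.41-fold higher in the SLC1A2-led than in the DTHD1-led cluster (1.27 ± 0.25 on the log2 scale), and GRIK2 was 5.02-fold higher in the DTHD1-led cluster (SLC1A2-led minus DTHD1-led difference -2.33 ± 0.46 on the log2 scale). Both differences had the same direction in 7 of 7 libraries (exact permutation test, p adjusted over the 6 genes = 0.0469, n = 7). With 1 library left out both kept their direction, with an adjusted p of 0.0625 to 0.0938 (exact permutation test, n = 6). The smallest p the test can give is larger with 6 libraries, so this cannot show dependence on 1 library. The other genes did not pass, GRIK4 and GRID1 coming closest with an adjusted p of 0.0703 (exact permutation test). The DTHD1-led nuclei, led also by COL22A1 and GFAP, were shallower, with median depths of 1561 to 2203 UMIs against 3255 to 4553. The comparison was added after the levels had been seen, and with nuclei thinned to 1000 UMIs both differences passed.

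The microglia-like class joined clusters with different leading genes and GRIK2 levels. The main cluster, led by CALCR, held 132 ± 65.9 CPM (SD, n = 7). A small cluster led by CD163, MSR1 and SLC40A1, genes known from macrophages, in which the microglial markers CX3CR1 and P2RY12 were not among the raised markers, held 1282 ± 945 CPM over the 4 libraries with at least 10 of its nuclei. Among oligodendrocyte-like nuclei the MMRN1-led cluster held 215 ± 50.2 CPM of GRIK2, against 57.2 to 93.5 CPM in the other clusters.

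For each gene the genes most like it over the 70 values of 10 classes in 7 libraries were listed by Pearson r of log2(CPM + 1), among 9705 genes. The 70 values share libraries, class sizes and depth, and r is given as a description. GRIK1 was most like BCAN (r = 0.907), the proteoglycan brevican of perineuronal matrix, then SNCAIP and BTC. GRIK2 was most like LRCH2 (r = 0.926), followed by DCX, a marker used to name neuroblast-like nuclei, and LRRC49. GRIK3 came closest to HECW2 (r = 0.847), a ubiquitin ligase, then PLCXD3 and PTPRK, and GRIK4 to ZNF827 (r = 0.820), then CHIC2 and ST8SIA1. GRIK5 was most like AMPH (r = 0.911), which encodes the endocytic protein amphiphysin, and GRID1 was most like FBN1 (r = 0.924), which encodes fibrillin 1. Between the receptor genes themselves r was highest for GRIK2 with GRIK5 (0.800) and GRIK3 with GRID1 (0.690), and lowest for GRIK3 with GRIK4 (-0.32).

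A list of 17 genes whose products act with these receptors is given by its mean levels, with no test between classes. The auxiliary subunits NETO1 and NETO2 were high in the MSN-like classes, NETO1 with means of 406 to 518 CPM and NETO2 with 275 to 344 CPM, against at most 222 and 159 CPM in the other classes. GRIP1, a scaffold protein of glutamate receptors, was highest in PV/Th interneuron-like nuclei with 1834 ± 292 CPM (SD, n = 7). The neurexin gene NRXN3 was highest in neuroblast-like nuclei (5122 ± 992 CPM) whereas NRXN2 had nearly the same mean in PV/Th interneuron-like (147 ± 24.2 CPM), oligodendrocyte-like (144 ± 26.1 CPM) and OPC-like nuclei (143 ± 24.7 CPM).

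ADARB1, the RNA-editing enzyme known for recoding GRIK1 and GRIK2 transcripts, held 177 ± 22.3 CPM in eccentric, 150 ± 12.6 in D1 and 141 ± 9.02 CPM in D2 MSN-like nuclei. ADAR held 134 ± 10.3 CPM in D2 and 123 ± 12.8 CPM in D1 MSN-like nuclei. KLHL24, which interacts with GluK2, was highest in oligodendrocyte-like nuclei (140 ± 15.0 CPM), and the scaffold gene DLG4 held 78.2 ± 12.2 CPM in D2 and 71.6 ± 10.2 CPM in D1 MSN-like nuclei. The cerebellins CBLN1, CBLN2 and CBLN4 and the C1q-like gene C1QL2, which encode extracellular partners, stayed under 10 CPM in every tested class, as did KLHL17 and PICK1. C1QL3 reached 12.5 ± 13.3 CPM in DTHD1-led astrocyte-like nuclei on 22 UMIs.

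OVT73 and control libraries were compared gene by gene within each class with edgeR, adjusted over all genes tested in the class, which asks whether the transgene changes these receptors in any class of nuclei. No receptor gene was called. Of 60 combinations of gene and class 56 could be tested, with adjusted p from 0.693 to 1.00 (edgeR, 3 OVT73 against 4 control libraries). The 4 untested ones, with too few counts, were GRIK1, GRIK3 and GRIK5 in microglia-like and GRIK5 in oligodendrocyte-like nuclei. Under an unadjusted p of 0.05 there were 7 of 56 (12.5%), against 4.81% of all 82695 tests over the 10 classes. DESeq2 called 1 of 56, GRIK3 in PV/Th interneuron-like nuclei, where it called 8 of 7620 genes. Over all genes it called between 0 and 9 per class. The log2 fold changes (OVT73 against control) ran from -1.66 to 1.29 with a median half-width of the 95% interval of 0.49. These intervals are not adjusted over genes, so the adjusted test can miss changes larger than that.

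Over all genes edgeR called 0.0% in 8 of the 10 classes, 0.0111% in OPC-like and 0.0133% in eccentric MSN-like nuclei, 1 gene in each of these classes. In D2 MSN-like and OPC-like nuclei all 6 receptor genes had an estimate above 0 (median log2 fold change 0.19 and 0.23), where 45.1% and 47.5% of all genes did (medians -0.03 and -0.02). In oligodendrocyte-like nuclei the 5 tested receptor genes all had an estimate below 0, where 46.5% of all genes lay above 0. Over the 10 classes 33 of the 56 estimates were above 0, against 46.9% of all tests. By gene, all 8 estimates of GRIK5 and 9 of 10 of GRIK4 were above 0, and 7 of 9 of GRIK3 and 7 of 10 of GRID1 below. All OVT73 libraries lay above all control libraries in 2 of the 56 combinations and below them in 2, against 3.16% and 2.82% of all tests.

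**Figure D4:**
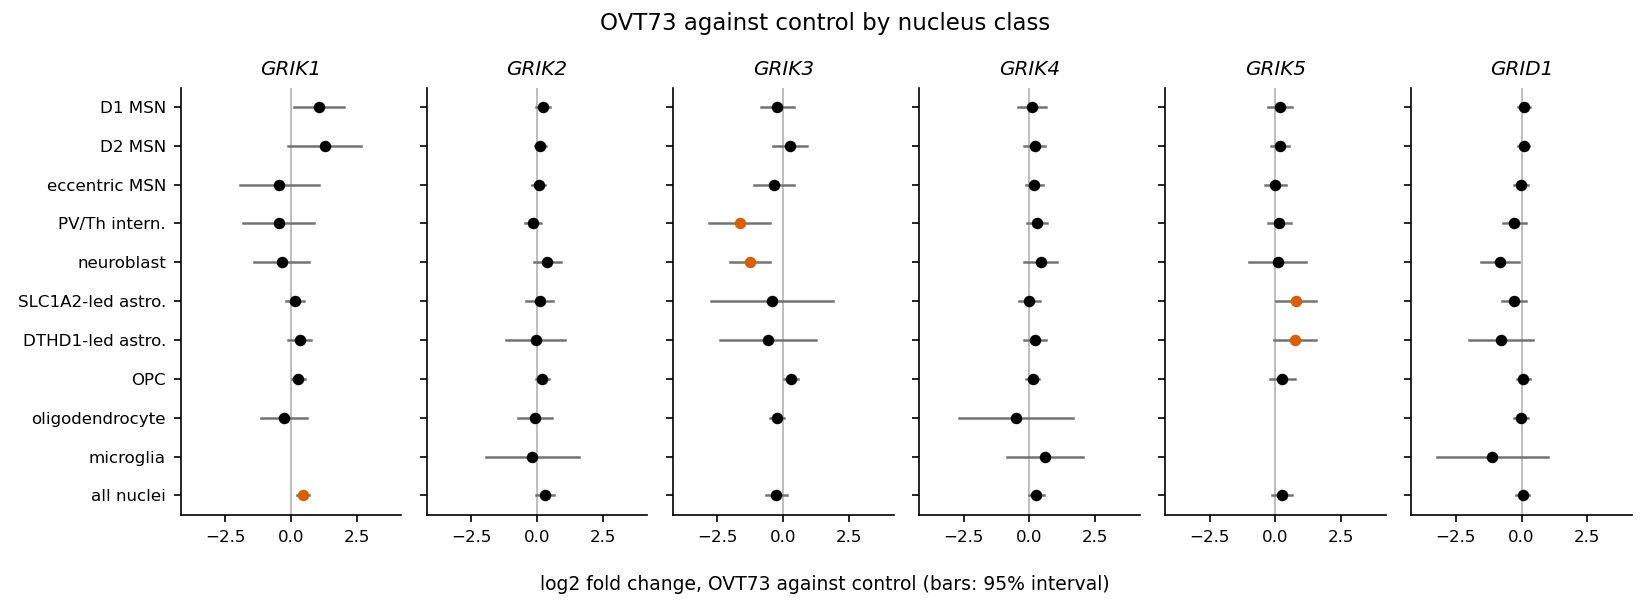
Log2 fold change of each gene in OVT73 against control libraries by nucleus class, with the 95% interval of the edgeR fit as a bar, for the combinations that could be tested. Orange points mark groups whose libraries do not overlap, GRIK3 in PV/Th interneuron-like and neuroblast-like nuclei below 0, and GRIK5 in both astrocyte-like classes and GRIK1 in all nuclei above 0.

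GRIK3 had the lowest estimates. In PV/Th interneuron-like nuclei its normalized CPM, scaled by the trimmed mean of M values (TMM), were 53.0, 34.2 and 21.9 in OVT73 libraries 1 to 3 and 57.9, 89.0, 231 and 107.5 in control libraries 1 to 4. All OVT73 values lie below all control values, as for 2.44% of all genes in this class. The log2 fold change was -1.66 (SE 0.50, edgeR adjusted p = 0.999), based on 15 to 150 UMIs per library. It was -1.15 without control library 3 and -0.57 with clustering at resolution 0.5, and DESeq2 gave -1.71 with an adjusted p of 0.0319. DESeq2 called 8 of 7620 genes in this class. Markers of MSNs, 11 genes, were summed in PV/Th interneuron-like nuclei, 1 of 11 being higher in OVT73. The sums were 2435, 2393 and 1867 CPM in OVT73 libraries 1 to 3. In control libraries 1 to 4 these markers summed to 2887, 3252, 2214 and 6185 CPM. Oligodendrocyte markers come from the class with the highest GRIK3 level. In PV/Th interneuron-like nuclei they summed to 488 to 527 CPM in OVT73 and 457 to 591 CPM in control libraries. Of 10 such markers 2 were higher in OVT73. The part of either marker list in the difference was not tested.

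In neuroblast-like nuclei GRIK3 stood at 67.2, 32.1 and 56.8 normalized CPM in the OVT73 and 76.0, 166, 164 and 137 in the control libraries. The groups again did not overlap, as for 2.26% of all genes in the direction of lower OVT73 values. The log2 fold change was -1.27 (SE 0.35, edgeR adjusted p = 0.999), and the counts were 9 to 46 UMIs per library. Oligodendrocyte markers, from the class with the highest GRIK3 level, summed to 371, 450 and 347 CPM in the OVT73 and 230, 669, 1081 and 440 CPM in the control neuroblast-like nuclei, with 1 of 10 markers higher in OVT73. Whether they account for the GRIK3 values was not tested.

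In the class where GRIK3 is highest the groups lay closer. Oligodendrocyte-like nuclei held 649, 624 and 717 normalized CPM in the OVT73 and 801, 930, 691 and 718 in the control libraries, which overlap (log2 fold change -0.24, SE 0.12, edgeR adjusted p = 0.879). In D2 MSN-like nuclei the estimate was 0.26 (SE 0.28) and turned to -0.06 without OVT73 library 2. In OPC-like nuclei it was 0.30 (SE 0.13), with overlapping groups.

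GRIK1 had its highest estimates in D1 and D2 MSN-like nuclei, where its level was near background. D1 MSN-like nuclei held 19.2, 44.1 and 20.8 normalized CPM of GRIK1 in the OVT73 and 11.96, 25.4, 8.99 and 8.60 in the control libraries. D2 MSN-like nuclei held 11.9, 48.7 and 33.2 in the OVT73 and 5.49, 26.9, 6.51 and 12.6 in the control libraries. OVT73 library 2 and control library 2 were the highest of their group in both classes, and the groups overlapped. The log2 fold changes were 1.06 (SE 0.42) and 1.29 (SE 0.61), with edgeR adjusted p of 0.948 and 0.904. Without OVT73 library 2 they were 0.57 and 0.80, and without control library 2 the estimates were 1.51 and 1.90. In eccentric MSN-like nuclei the estimate had the other sign, -0.44 (SE 0.65), with overlapping groups.

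Where GRIK1 is abundant the estimates were smaller. OPC-like nuclei held 1526, 1656 and 1409 normalized CPM in the OVT73 and 1184, 1431, 1105 and 1317 in the control libraries (log2 fold change 0.28, SE 0.11, edgeR adjusted p = 0.693). SLC1A2-led astrocyte-like nuclei held 3185, 3313 and 3133 in the OVT73 and 3503, 2484, 2365 and 3108 in the control libraries (0.16, SE 0.16). DTHD1-led astrocyte-like nuclei gave 0.33 (SE 0.20). In each class the groups overlapped.

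Summed over all nuclei of a library, GRIK1 stood at 214, 245 and 253 normalized CPM in the OVT73 and 178, 181, 161 and 165 in the control libraries. The groups did not overlap, as for 3.07% of all genes in this direction, and the log2 fold change was 0.47 (SE 0.10, edgeR adjusted p = 0.831). DESeq2 gave 0.49 with an adjusted p of 0.0493, and called 15 genes in all nuclei. SLC1A2-led astrocyte-like nuclei were 1.78% to 3.19% of the UMIs in OVT73 and 0.68% to 1.98% in control libraries, and 2.96% to 4.38% against 0.90% to 2.55% of nuclei. In such sums a change in the number of nuclei of a class and a change of RNA per nucleus cannot be told apart.

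GRIK2 overlapped between the groups in every class. D1 MSN-like nuclei, which hold most of its UMIs, had 5043, 5389 and 4377 normalized CPM in the OVT73 and 4311, 4651, 3848 and 4087 in the control libraries (log2 fold change 0.22, SE 0.11, 95% interval -0.02 to 0.47, edgeR adjusted p = 0.948). In D2 MSN-like nuclei the estimate was 0.13 (SE 0.10, 95% interval -0.09 to 0.35). Neuroblast-like nuclei had 4741, 7210 and 7389 in the OVT73 and 5967, 3368, 5554 and 4790 in the control libraries (0.39, SE 0.24).

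GRIK5 was not called in the astrocyte-like classes, where its OVT73 libraries lay above all control libraries on few UMIs. These are the 2 of 56 combinations in that direction, near the share of 3.16% over all tests. SLC1A2-led astrocyte-like nuclei held 43.3, 40.4 and 34.3 normalized CPM in the OVT73 and 15.9, 8.22, 24.7 and 34.1 in the control libraries, from 1 to 67 UMIs per library. The log2 fold change was 0.78 (SE 0.35, edgeR adjusted p = 0.999), and 2.91% of all genes in this class lay above in the same way. DTHD1-led astrocyte-like nuclei held 41.8, 62.8 and 41.6 in the OVT73 and 35.4, 30.5, 16.2 and 36.2 in the control libraries, from 5 to 39 UMIs (0.76, SE 0.37, edgeR adjusted p = 1.00; 2.47% of all genes lay above). The nearest libraries of the groups differed by 0.2 normalized CPM in the former class. Depth per nucleus moved with the group, with median UMIs of 3977 to 4553 in OVT73 and 3255 to 3644 in control SLC1A2-led nuclei, and its part was not tested. In D1 and D2 MSN-like nuclei both estimates of GRIK5 were 0.17 (SE 0.21 and 0.15).

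**Figure D5:**
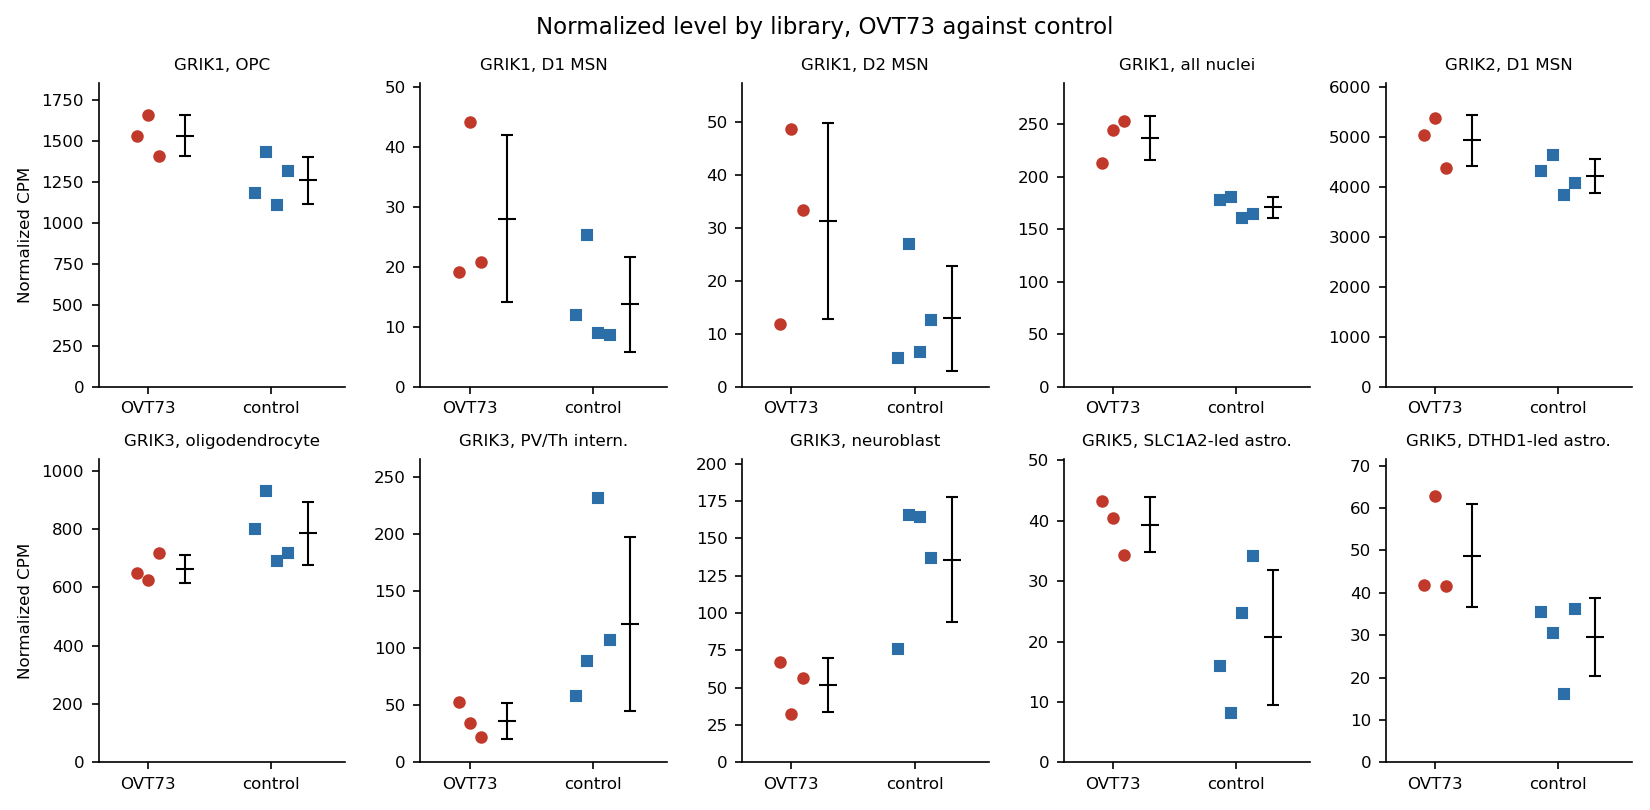
Normalized CPM of 4 receptor genes in chosen classes by library (red circles OVT73, blue squares control), with the mean and SD of each group in black and linear axes from 0. GRIK3 in neuroblast-like nuclei lies at 32.1 to 67.2 in OVT73 and 76.0 to 166 in control libraries, and GRIK1 in all nuclei at 214 to 253 and 161 to 181.

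GRIK4 overlapped between the groups in every class, with an estimate of 0.19 (SE 0.16) in eccentric MSN-like, 0.13 (SE 0.11) in OPC-like and 0.22 (SE 0.20) in DTHD1-led astrocyte-like nuclei. For GRID1 the classes with the highest levels gave narrow intervals around 0. They were -0.30 to 0.23 in oligodendrocyte-like, -0.13 to 0.33 in D1 and -0.13 to 0.28 in D2 MSN-like nuclei (95%, edgeR).

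The lowest GRID1 estimates came from classes with little of it. In neuroblast-like nuclei GRID1 held 73.0, 60.7 and 114 normalized CPM in the OVT73 and 95.02, 221, 177 and 114 in the control libraries (log2 fold change -0.82, SE 0.34, edgeR adjusted p = 0.999). In microglia-like nuclei the estimate of -1.11 (SE 0.88) rested on control library 3, and it was 0.07 without it. In DTHD1-led astrocyte-like nuclei it was -0.78 (SE 0.52), and -0.14 without control library 3, the library with the raised oligodendrocyte markers in both classes.

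Whether the OVT73 effect differed between D2 and D1 MSN-like nuclei was tested on the D2 minus D1 difference of each library. No gene passed. The closest was GRIK2, with mean differences of -0.66 ± 0.06 (SD, n = 3) in OVT73 and -0.57 ± 0.03 (n = 4) in control libraries, which differ by -0.09 (exact permutation test, p = 0.0571, adjusted over the 6 genes 0.343). With 3 against 4 libraries the smallest possible p is 0.0286.

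Of the 17 partner genes 13 could be tested in at least 1 class, in 100 of 170 combinations, and none was called (edgeR adjusted p from 0.598 to 1.00). Under an unadjusted p of 0.05 there were 13 of 100, all higher in OVT73, against 4.81% of all tests in either direction. DESeq2 called 0 with 10 under that p. The 100 combinations repeat 13 genes over classes of the same 7 libraries, so they are not independent. Estimates above 0 made up 71 of the 100, and groups did not overlap in 13 with OVT73 higher and in 1 with OVT73 lower, beside the shares over all tests given above (46.9%, 3.16% and 2.82%). NETO2 in D1 MSN-like nuclei lay at 365 to 431 normalized CPM in OVT73 and 271 to 343 in control libraries (log2 fold change 0.38, SE 0.11), where 2.71% of all genes lay above in the same way. ADARB1 lay above in D1 MSN-like, D2 MSN-like (3.17% of all genes) and OPC-like nuclei (4.24% of all genes), with estimates of 0.24, 0.20 and 0.39.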

How the data were processed

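The authors deposited raw UMI counts per feature and barcode for each library, made with Cell Ranger 7.0.0 and STAR 2.7.2a per the submitters' processing notes, on the Oar_rambouillet_v1.0 genome with its Ensembl annotation. The paper's library statistics map a far larger share of reads to the transcriptome than to exonic regions, which points to intronic reads being counted. A batch is not given in the sources used here. Free RNA was not removed. The file that assigns pooled barcodes to sheep was not used here. The study tested single nuclei with MAST, whereas here libraries were the replicates, since nuclei of 1 library are not independent. Labels do not say whether libraries came from separate days, so p-values measure the spread between these libraries.

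Nuclei with 200 to 7500 genes and at most 5% of UMIs from 35 mitochondrial features were kept. The automatic scrublet threshold (scanpy 1.11.5) marked 129 barcodes, under 0.5%, so that the 4% with the highest score were removed, 1358 in all. Libraries shared 2 to 20 barcodes per pair. The 3000 most variable genes, without the 6 receptor genes, gave 30 components. They were corrected between libraries by an own implementation of Harmony and clustered on 20 neighbours with leidenalg 0.10.2 at resolution 1.0. A cluster was named when at least 3 markers of a class were raised by over 1.0 (log2), no other class reached 0.5 of its mean raise and a marker was among its 50 leading genes. These limits were set after marker profiles were seen and before the groups were compared.

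Counts were summed per library and class. OVT73 and control sums were compared with edgeR 4.0.16 (filterByExpr, TMM, quasi-likelihood fit with robust dispersion, two-sided p-values adjusted by Benjamini-Hochberg over all genes of the class, threshold 0.05). Exact permutation tests used the 128 sign patterns of 7 libraries (of 6 where 1 was left out), and for the OVT73 effect in D2 against D1 nuclei the 35 ways to label 3 of 7 libraries as OVT73. The receptor genes and lists were chosen with earlier results of these data known. The rule for named genes took the 6 receptor genes, 17 partner genes from textbook knowledge, markers and leading genes of clusters, and the 3 most similar genes of each receptor gene. The values of 1 partner gene, which stays in the counts, are not reported here. Alternatives were DESeq2 1.42.0, other scaling, no filter on low counts, each library left out, equal nuclei, doublets kept, receptor genes in the clustering, resolution 0.5, another pseudocount and thinning. The fits were tested on simulated data.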

Additional observations from a re-analysis of the deposited data

Results flagged for a closer look

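Of 62 groups of 4 control libraries examined, 3 held a library far from the other three by Dixon's criterion, and chance gives about 1 in 20. GRID1 in DTHD1-led astrocyte-like nuclei was 511 normalized CPM in control library 3 and 159 to 182 in the other control libraries. GRID1 in microglia-like nuclei was 137 normalized CPM in control library 3 and 13.1 to 32.4 in the others. In both classes control library 3 also had the highest summed level of 10 oligodendrocyte markers, 2855 and 1613 CPM, and their part in these values was not tested. GRIK4 over all nuclei was 130 normalized CPM in control library 4 and 144 to 146 in the other control libraries.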

How the results depend on the processing

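No receptor gene was called in any of the 10 classes by edgeR under other scaling, without a filter, with equal nuclei, with doublets kept, under other clusterings or with a library left out. DESeq2 called 1 receptor gene in PV/Th interneuron-like nuclei (GRIK3, log2 fold change -1.71, adjusted p = 0.0319) and 1 in all nuclei (GRIK1, 0.49, adjusted p = 0.0493), and the cause was not tested. Over all genes it called 8 of 7620 in the former and 15 of 16061 in the latter. Of the 56 combinations of gene and class, 32 kept their sign in every alternative, while 22 of 430 values under other settings and 35 of 390 with a library left out changed sign. Without TMM factors the median of all genes moved to -0.13 in D1 and D2 MSN-like and -0.11 in OPC-like nuclei, the share of genes above 0 fell to 27.1%, 25.9% and 32.0% there, and GRID1 turned to -0.031 in D2 MSN-like and -0.020 in OPC-like nuclei. With a library left out the log2 fold change ran from -1.55 to 0.070 for GRID1 in microglia-like, -0.11 to 0.022 for GRID1 in oligodendrocyte-like, -0.062 to 0.51 for GRIK3 in D2 MSN-like and -0.078 to 0.28 for GRIK5 in PV/Th interneuron-like nuclei. The D2 minus D1 difference of the OVT73 effect ran from -0.051 to 0.60 for GRIK1, -0.037 to 0.23 for GRIK4 and -0.14 to 0.055 for GRIK5.

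Between classes, thinning left 0 of 54 neighbour pairs past the test, with steps of 1.08 for GRIK1 and 1.45 for GRIK3 (adjusted p = 0.0603 for both, exact permutation test), since fewer pairs reached the smallest p. With a library left out 0 pairs passed (lowest adjusted p = 0.0734, exact permutation test, n = 6), the steps being 0.995 to 1.12 for GRIK1 and 1.32 to 1.58 for GRIK3. The smallest p possible with 6 libraries is larger, so this cannot show that a step depends on 1 library. With doublets kept the step of GRIK4 was 0.33 and passed. The D2 minus D1 level turned to 0.10 for GRIK1 and -0.39 for GRIK5 after thinning and to 0.013 for GRIK1 in the main D2 cluster alone, where GRIK4 no longer passed (0.021) and GRID1 did (0.084). It ran from -0.22 to 0.05 for GRIK1 with a library left out. At resolution 0.5 the astrocyte-like clusters merged, so the SLC1A2-led class gave no value. With the receptor genes among the clustering genes the DTHD1-led class gave none. Comparisons between classes were paired by library. OVT73 and control libraries come from different sheep and were not paired. The labels carry no replicate numbers, and the numbers used here follow accession order.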

Other observations

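Clusters without a class name also differed in their receptor genes, given as values without a test. A small cluster led by the cell-cycle genes TOP2A, DIAPH3 and NDC80 held 8010 ± 1541 CPM of GRIK2 over the 5 libraries with at least 10 of its nuclei, and 428 ± 284 CPM of GRIK1. A cluster led by CPNE4, with markers of both excitatory neurons and MSNs, held 252 ± 153 CPM of GRIK1 and 381 ± 175 CPM of GRIK3 (SD, n = 7). A cluster led by NPY, SCG2 and SLC5A7 held 143 ± 105 CPM of GRIK2 but 538 ± 129 CPM of GRIK3 and 687 ± 91.8 CPM of GRID1. A cluster led by MCTP1, with markers of more than 1 MSN subtype, held 3097 ± 778 CPM of GRIK2 and 638 ± 131 CPM of GRID1.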
